A study of Mus musculus with 26 samples.

Results

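The effect of castration on transcript levels was examined in left ventricles of mice that carry a gene trap in the Y-linked gene Uty. Members were chosen by genotype: the 13 gene-trap libraries of 26 in all, 7 from castrated and 6 from sham-operated males. Differences are castrated minus sham. The gene trap, UtyGt(XS0378)Wtsi, is an inserted cassette in intron 4 that interrupts the host transcript, and both gene-trap groups carry it. Animals of both groups were males aged 40 days, operated on at about 10 days of age, so each value describes tissue that had been without testes, or had undergone the sham operation, since before puberty. The other 13 libraries came from wild-type males of the isogenic strain C57BL/6.Y<129P2>, 7 castrated and 6 sham-operated, and serve here only for comparison. As limits of the model, the trap is constitutive and represents a single inserted allele, and the libraries come from whole ventricle. The labels do not state how animals were assigned to libraries, so the spread behind each p-value is that between libraries, which may be technical.

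Testicular androgens are steroid hormones that raise and lower the transcription of target genes in many tissues, the heart among them, and castration removes their main source in males. Steroid hormone response elements of this class are palindromes built from the arm AGAACA. Uty is the Y-linked relative of the histone demethylase gene Kdm6a, which acts on methylated lysine of histone H3. Its product keeps the scaffold of that family but has little demethylase activity.

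Each tag of the 3′ end libraries comes from the polyadenylated end of a transcript. The gene-trap libraries held 6357485 to 8408706 counts assigned to genes, and 12291 genes passed the filter on low counts. Levels are in CPM, counts scaled to the same total in every library with an adjustment for composition. They are given as the range with the median over the libraries of a group or as mean ± SD over 6 sham and 7 castrated libraries. Fold changes are log2 values from edgeR, and a gene was called where its adjusted p was under 0.05 over all genes tested. In whole ventricle, fewer cells of a type and less RNA per cell cannot be told apart.

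The castrated gene-trap libraries fell into 2 sets on the first principal component of the 13 libraries, which held 26.2% of the variance. Replicates 1 to 4 scored -43.4 to -11.4, replicates 5 to 7 scored 18.0 to 26.9, and the sham libraries lay at -7.58 to 21.5. On the second component, with 22.03% of the variance, the mean score was -12.1 in castrated and 14.1 in sham libraries (two-sided exact permutation test, p = 0.0251, adjusted over 8 quantities 0.121). Reads lacking a unique alignment were 45.9% to 46.8% in castrated replicates 1 to 4, 42.4% to 43.4% in replicates 5 to 7 and 42.0% to 43.9% in the sham libraries. In wild type they were 41.9% to 44.6% in castrated and 43.5% to 45.9% in sham libraries. The mean share was thus higher in castrated libraries in gene trap (44.8% against 42.7%) and lower in wild type (42.9% against 44.6%). The labels give no batch for these libraries, and the part of the read share in the results was not tested. Results are therefore given with all 7 castrated libraries and without replicates 1 to 4. Among the wild-type libraries, the sham group scored -78.2 to 3.41 on the first component of all 26 libraries (35.6% of the variance), whereas the other 3 groups lay between -26.0 and 37.3, and only wild-type sham replicate 6 fell in that interval.

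**Figure D1:**
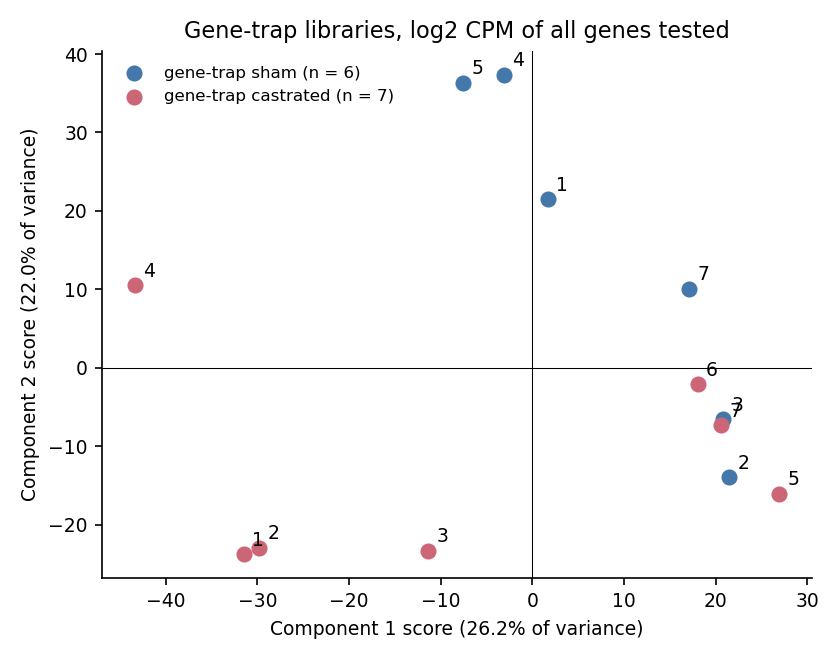
Scores of the 13 gene-trap libraries on the first 2 principal components of log2 CPM; each point is a library, numbered by replicate, with sham and castrated libraries in different colours. Castrated replicates 1 to 4 lie at -43.4 to -11.4 on the first component, below every sham library, while replicates 5 to 7 lie at 18.0 to 26.9, among or above the sham libraries.

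Uty tags were near the counting limit in both groups. Its levels were 0.42, 0.43, 0.724, 0.641, 0.125 and 0.246 CPM in sham replicates 1, 2, 3, 4, 5 and 7, and 0.396, 0.882, 0.875, 1.06, 0.876, 0 and 0 CPM in castrated replicates 1 to 7. Castrated replicates 6 and 7 had 0 counts, and 3 counts, the upper limit for such a library, equal 0.418 and 0.428 CPM there. Wild-type libraries held 6.57 CPM or more, so all 13 libraries matched their genotype label. The log2 fold change with castration was 0.49 (edgeR adjusted p = 0.626). The 3′ tags lie downstream of the trap and say nothing of a shortened 5′ product. Ddx3y, the neighbouring RNA helicase gene, was at 9.33 to 24.9 CPM (median 15.5) in sham and 6.01 to 32.3 CPM (median 13.5) in castrated libraries. The gene-trap groups overlapped, with a log2 difference of -0.04 (edgeR adjusted p = 0.957). The histone demethylase gene Kdm5d had a log2 difference of -0.49 and the translation initiation factor gene Eif2s3y one of -0.29 (edgeR adjusted p = 0.344 and 0.608). In wild-type libraries Ddx3y was at 86.95 to 115 CPM, above every gene-trap library, Kdm5d at 1.56 to 5.56 CPM and Eif2s3y at 1.30 to 3.72 CPM, against 2.84 to 12.9 CPM of Eif2s3y in gene trap. The genotypes thus differed in the level of Ddx3y as well as of Uty. Eif2s3y had a median of 6.96 CPM in gene-trap and 2.15 CPM in wild-type sham libraries, and of 4.96 and 2.49 CPM in castrated ones. Its ranges in the 2 genotypes did not overlap in sham libraries and did in castrated ones.

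In gene-trap ventricles 50 genes were called after castration, 0.407% of the 12291 tested, of which 19 were higher (0.155%) and 31 lower (0.252%). The lower genes included Ifi205 of the interferon-inducible p200 family, the complement gene C3 and the dipeptidase gene Dpep1. The higher genes included Evl, an actin regulator of the Ena/VASP family, and Myh7, the beta-myosin heavy chain gene. The median absolute log2 fold change of the called genes was 0.728 and 11 exceeded 1, while the median over all genes tested was 0.01. Of the called genes 49 were protein coding and 2, Itm2a and Amot, were X-linked. At an unadjusted p under 0.05 there were 2167 genes (17.6%), 953 higher (7.75%) and 1214 lower (9.88%). The libraries of the groups did not overlap in 27 called genes, 9 higher and 18 lower, against 73 genes (0.594%) among all tested, 19 higher (0.155%) and 54 lower (0.439%).

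The count of called genes moved with the libraries used, castrated replicates 1 to 4 among them. Without them 3 of 12693 genes (0.0236%) were called: C3 and Ifi205 lower and Matn2, which encodes the matrix protein matrilin-2, higher. At an unadjusted p under 0.05 there were then 842. Leaving out single libraries gave 4, 4, 3 and 5 called genes without castrated replicates 1 to 4 in turn, 344, 309 and 377 without castrated replicates 5, 6 and 7, and 14, 196, 44, 4, 4 and 6 without sham replicates 1, 2, 3, 4, 5 and 7. C3, Ifi205 and Evl were called in each of these 13 fits, and the other 47 lost the call in at least 1, with edgeR adjusted p of up to 0.138. A fit to the 13 gene-trap libraries alone called 5 genes of 11703 (0.0427%), with 1997 at an unadjusted p under 0.05; they were Ifi205, C3, Dpep1, Tesc and Penk, all lower. DESeq2 called 434 genes and limma voom with sample weights 6.

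Ifi205 had the smallest p of all genes. It belongs to the p200 family of interferon-inducible genes, clustered on mouse chromosome 1, whose products bind DNA in the nucleus and cytosol. Ifi205 (ENSMUSG00000054203; chromosome 1, 174011998 to 174031810, minus strand, GRCm38) was at 3.22, 4.59, 3.74, 3.37, 3.37 and 8.72 CPM in sham replicates 1, 2, 3, 4, 5 and 7, and at 0.925, 0.504, 0.625, 1.18, 0.876, 0.653 and 0.693 CPM in castrated replicates 1 to 7. These castrated levels rest on 4 to 10 counts per library. Every castrated library lay below every sham library, and sham replicate 7 stood above the other sham libraries. The mean fell from 4.5 ± 2.13 to 0.78 ± 0.23 CPM, a log2 difference of -2.50 (SE 0.306, edgeR adjusted p = 3.05e-05). Without castrated replicates 1 to 4 it was -2.55 (edgeR adjusted p = 0.0161). Over the 13 fits that each left out a library and the 13 other alternatives, it lay between -2.63 and -2.19 and was called in each.

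Ifi211, another p200 gene (chromosome 1, 173896345 to 173913046, minus strand), was also lower: sham libraries held 1.62 to 3.56 CPM (median 2.1) and castrated ones 0.396 to 1.8 CPM (median 0.63). Of the 7 castrated libraries 6 lay below every sham library. The log2 fold change was -1.42 (SE 0.326, edgeR adjusted p = 0.0415), and -1.03 without castrated replicates 1 to 4 (edgeR adjusted p = 0.736). The other 6 p200 genes tested did not pass. Mndal had a log2 difference of -0.10, Ifi203 of -0.14, Ifi204 of 0.08, Ifi207 of -0.13, Ifi208 of -0.10 and the inflammasome sensor Aim2 of -0.06, with edgeR adjusted p of 0.683 to 0.969. The transcript ends of this family share sequence, so that reads may be split among copies: 46.6% of the 31-nt words in the last 400 nt of Ifi205 and 91.1% of those of Ifi211 recur in other genes, chiefly Mndal and each other. The last 400 bases of Ifi211 are also overlapped on the same strand by an annotated range of Mndal. The values of Ifi205 and Ifi211 are therefore uncertain.

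The promoters of Ifi205, Ifi211 and Mndal are shown because the first 2 genes fell and the third, next to them, did not pass the test. The stretches end upstream of the transcription start and are read 5′ to 3′ on the minus strand (RefSeq, GRCm38.p6: chr1:174031845-174031924, chr1:173913047-173913118 and chr1:173880188-173880258). Capitals mark GAAANNGAAA, the core of the interferon-stimulated response element.
Ifi205: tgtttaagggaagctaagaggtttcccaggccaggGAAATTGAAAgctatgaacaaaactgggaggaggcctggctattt
Ifi211: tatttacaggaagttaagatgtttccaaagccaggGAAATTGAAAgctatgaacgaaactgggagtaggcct
Mndal: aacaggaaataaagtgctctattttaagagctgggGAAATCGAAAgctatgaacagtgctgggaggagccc
Over 67 aligned bases Ifi205 and Ifi211 were identical at 86.6%, Ifi205 and Mndal at 58.2%, and Ifi211 and Mndal at 61.2%. All 3 hold the core on this strand, with different letters between its arms in Mndal. Searched on both strands in 300-base windows, the core occurred in 3.44% of 32851 mouse promoters, in 3 of 26 promoters of the genes that fell (Ifi205, Ifi211 and Brd7) and in 0 of 23 promoters of the genes that rose. The steroid response arm AGAACA occurred in 19.0% of all promoters, in 5 of those 26 and in 3 of those 23. The full palindrome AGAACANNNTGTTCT occurred in 3 promoters of all and in 0 of either set. These windows covered 24 of the 31 lower and 14 of the 19 higher genes. A match describes letters only, and says nothing of whether a factor binds.

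C3, the central component of the complement cascade, was likewise called whichever single library was left out. C3 (ENSMUSG00000024164; chromosome 17, 57203970 to 57228136, minus strand) was at 34.4, 32.1, 45.2, 40.9, 43.6 and 63.9 CPM in sham replicates 1, 2, 3, 4, 5 and 7, and at 9.64, 16.5, 14.8, 29.6, 18.3, 17.2 and 17 CPM in castrated replicates 1 to 7. All castrated libraries lay below all sham libraries, the highest being castrated replicate 4. The mean fell from 43.4 ± 11.3 to 17.6 ± 6.02 CPM, a log2 difference of -1.30 (SE 0.189, edgeR adjusted p = 0.00055). Without castrated replicates 1 to 4 the log2 fold change was -1.28 (edgeR adjusted p = 0.0161). The transcript end of C3 shared none of its 31-nt words with other genes.

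Dpep1 encodes a membrane dipeptidase that cleaves leukotriene D4 and cystinyl-bis-glycine. Dpep1 (chromosome 8, 123186242 to 123201812) was at 27.4 to 52.5 CPM (median 35.8) in sham and 11.2 to 21.7 CPM (median 16) in castrated libraries. The ranges did not overlap, and castrated replicates 5 to 7, at 11.2 to 17.9 CPM, were as low as replicates 1 to 4, at 11.4 to 21.7 CPM. The log2 fold change was -1.21 (SE 0.215, edgeR adjusted p = 0.0114). It was -1.33 without castrated replicates 1 to 4 but did not pass there (edgeR adjusted p = 0.226), and the call was also lost without castrated replicate 3 or sham replicate 5, with edgeR adjusted p of up to 0.0586. Its end is overlapped on the same strand by the readthrough model Gm20388. The upstream bases of C3 (chr17:57228137-57228236, minus strand) and Dpep1 (chr8:123186135-123186234, plus strand; RefSeq, GRCm38.p6) are shown as those of the genes outside the p200 family with the smallest p; neither holds the motifs searched.
C3: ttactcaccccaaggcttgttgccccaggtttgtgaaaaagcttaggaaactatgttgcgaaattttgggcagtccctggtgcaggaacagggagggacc
Dpep1: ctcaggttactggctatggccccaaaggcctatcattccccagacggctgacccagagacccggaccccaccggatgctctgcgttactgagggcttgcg

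Tesc encodes tescalcin, a calcium-binding protein that interacts with the sodium-proton exchanger of the cell membrane. It was at 235 to 437 CPM (median 291) in sham and 152 to 227 CPM (median 176) in castrated libraries, without overlap, and its log2 fold change was -0.76 (SE 0.156, edgeR adjusted p = 0.0339). Without castrated replicates 1 to 4 it was -0.85 (edgeR adjusted p = 0.384). Penk, the precursor gene of the enkephalin opioid peptides, was at 4.49 to 7.24 CPM (median 5.98) in sham and 1.72 to 3.66 CPM (median 2.63) in castrated libraries. These did not overlap either, and the log2 fold change was -1.20 (SE 0.267, edgeR adjusted p = 0.0404), or -0.91 without replicates 1 to 4. Tnni2, which encodes the inhibitory troponin subunit of fast skeletal muscle, was at 3.3 to 5.36 CPM (median 4.82) in sham and 2 to 2.84 CPM (median 2.19) in castrated libraries. It too was separated, with log2 fold changes of -0.93 (SE 0.198, edgeR adjusted p = 0.0345) and -0.95 without replicates 1 to 4. Other skeletal muscle markers did not pass. Of 11, 5 were tested, Tnni2 among them. Myh1, Myh2, Tnnt3, Myod1 and Actn3 were below the filter on low counts, and Myh4 had 0 counts in all 13 libraries. The 5 tested summed to 2120.5 to 3595 CPM in sham and 2132 to 2968 CPM in castrated libraries. Nearly all of that sum was Ckm (1794 to 3178 CPM in sham, 1788 to 2643 CPM in castrated libraries) and Acta1 (321 to 912 CPM and 191 to 514 CPM). Helt, a basic helix-loop-helix repressor gene, was at 8.5 ± 2.67 and 4.41 ± 0.701 CPM, with a log2 difference of -0.94 (edgeR adjusted p = 0.0415).

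**Figure D2:**
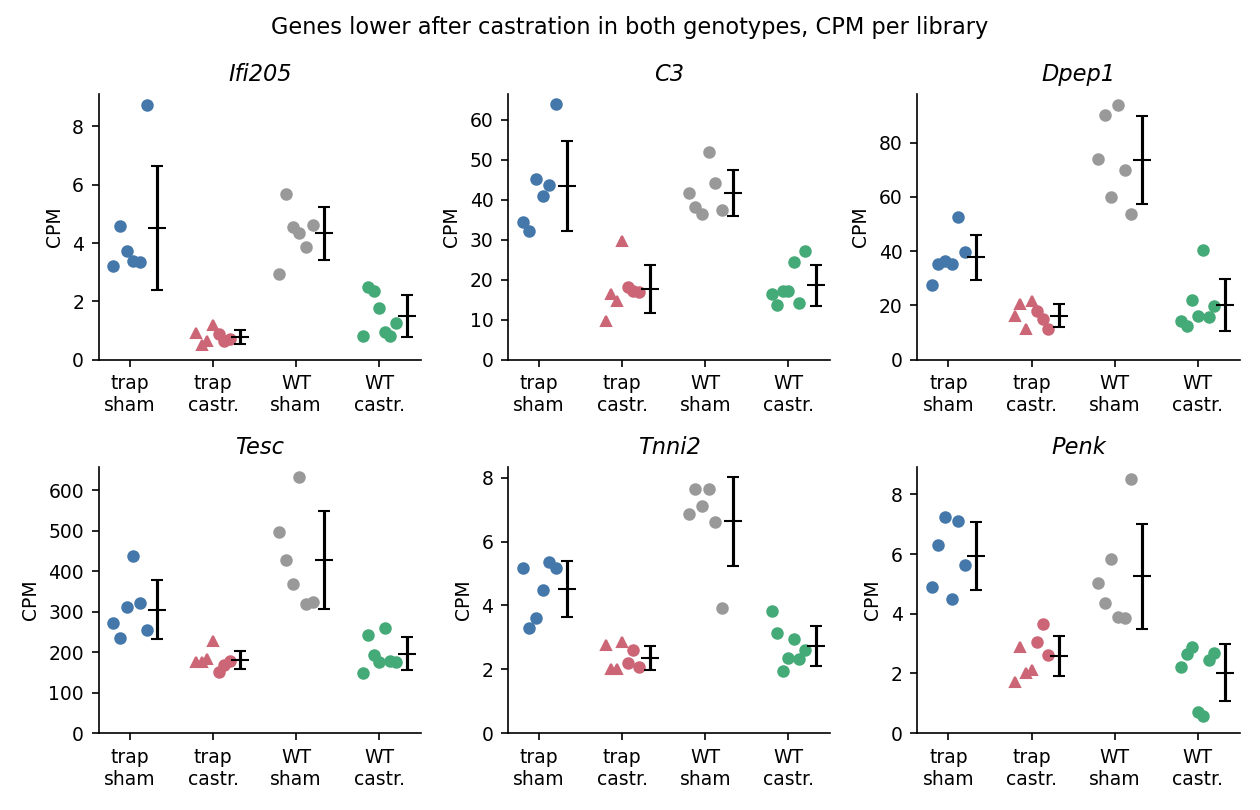
CPM of 6 genes in each library of the 4 groups; points are libraries, triangles mark gene-trap castrated replicates 1 to 4, and the bar at the right of each group is the mean ± SD (6 sham, 7 castrated libraries per genotype). In each panel every gene-trap castrated library lies below every gene-trap sham library, and the triangles lie among or beside the circles of replicates 5 to 7.

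Fbxo32 encodes atrogin-1, the ubiquitin ligase subunit that marks muscle atrophy, and it was at 220.3 to 336 CPM (median 281) in sham and 162 to 219.7 CPM (median 185) in castrated libraries. Castrated replicates 1 to 4 held 162 to 185 CPM and replicates 5 to 7 202 to 219.7 CPM, so every castrated library lay below every sham library. The log2 fold change was -0.59 (SE 0.112, edgeR adjusted p = 0.0189), and -0.40 without replicates 1 to 4 (edgeR adjusted p = 0.622). Mt2, a metallothionein gene induced by metals and glucocorticoids, was at 48.2 to 218 CPM (median 109) in sham and 33.6 to 68.7 CPM (median 47.1) in castrated libraries. The sham libraries spread widely and the groups overlapped, while the log2 fold change was -1.33 (SE 0.273, edgeR adjusted p = 0.0345) and -1.25 without replicates 1 to 4. Srf, the serum response factor gene, was at 289 to 496 CPM (median 383) and 165 to 332 CPM (median 253). It had a log2 difference of -0.65 (edgeR adjusted p = 0.0458), and of -0.31 without those replicates. Nmrk2, the nicotinamide riboside kinase gene of muscle, was at 95.5 CPM in sham replicate 7 against 7.03 to 11.7 CPM in the other sham libraries and 2.52 to 6.98 CPM in castrated ones. Its log2 fold change of -2.34 (edgeR adjusted p = 0.0458) moved to between -2.52 and -0.94 over the alternatives, and the groups did not overlap.

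Pptc7, a mitochondrial protein phosphatase gene, was at 901 ± 136 and 592 ± 121 CPM (log2 fold change -0.61, edgeR adjusted p = 0.0345). Ephx2, the soluble epoxide hydrolase gene, was at 338 ± 35.2 and 238 ± 33.7 CPM (log2 fold change -0.51, edgeR adjusted p = 0.0345), and Gda, the guanine deaminase gene, had a log2 difference of -0.69. Amot, which encodes the Hippo pathway scaffold angiomotin, fell from 45 ± 9.02 to 24.8 ± 7.52 CPM (log2 fold change -0.86, edgeR adjusted p = 0.0339). Timm9, a chaperone of mitochondrial import, had a log2 difference of -0.73, Rab3gap1, a subunit of the Rab3 GTPase-activating complex, one of -0.53, and Brd7, a bromodomain subunit of a chromatin remodelling complex, one of -0.48. Ktn1 (kinectin), Plce1 (phospholipase C epsilon) and Ppp2r2a (a regulatory subunit of protein phosphatase 2A) had log2 fold changes of -0.51, -0.57 and -0.60. Replicates 5 to 7 lay nearer the sham level than replicates 1 to 4 in these genes: without replicates 1 to 4 the log2 fold changes were -0.44 for Amot, -0.32 for Timm9 and -0.32 for Pptc7.

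Among the 19 higher genes, Evl had the smallest p. It was at 10.6, 13.9, 9.89, 9.94, 11.2 and 7.86 CPM in sham replicates 1, 2, 3, 4, 5 and 7, and at 24.6, 26.7, 22.6, 26.5, 16.9, 15.8 and 12.7 CPM in castrated replicates 1 to 7. Replicates 1 to 4 were the highest, replicates 5 and 6 were above every sham library, and replicate 7 lay within the sham range. The log2 fold change was 0.98 (SE 0.172, edgeR adjusted p = 0.0113), and 0.55 without replicates 1 to 4 (edgeR adjusted p = 0.686). Myh7, whose product is the slow myosin motor of the fetal and stressed mouse ventricle, was at 42, 28.5, 36.8, 28.9, 49.6 and 28.6 CPM in the sham and 102, 159, 68.6, 74.7, 55.8, 60.1 and 54.4 CPM in the castrated libraries, in the same order. All castrated libraries lay above all sham libraries, and replicate 2 was the highest. Its log2 fold change was 1.20 (SE 0.265, edgeR adjusted p = 0.0415), and 0.69 without replicates 1 to 4 (edgeR adjusted p = 0.736). The Myh7 end shares 25.8% of its 31-nt words with other genes, chiefly Myh6, and is overlapped on the opposite strand by Mhrt, so its value is uncertain.

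P2ry14, the receptor gene for UDP-glucose, was at 2.87 to 3.85 CPM (median 3.4) in sham and 5.14 to 7.93 CPM (median 5.8) in castrated libraries, and the groups did not overlap (log2 fold change 0.86, edgeR adjusted p = 0.0339, and 0.77 without replicates 1 to 4). Lrrc10, a leucine-rich repeat gene of heart muscle, was at 39.2 to 54.9 CPM (median 52.8) and 63 to 99.2 CPM (median 77.4), also without overlap, with a log2 difference of 0.58 (edgeR adjusted p = 0.0404). The transcriptional repressor genes Hic1 and Tbx2 had log2 fold changes of 0.97 and 0.85 (edgeR adjusted p = 0.0415 for both), and castrated libraries held 8.87 to 18 CPM of Hic1 against 4.74 to 8.25 CPM in sham. Cenpf, a kinetochore protein gene of dividing cells, rose from 24.9 ± 8.01 to 47.7 ± 12.2 CPM (log2 fold change 0.94, edgeR adjusted p = 0.0371) and was not called without replicates 1 to 4 (log2 fold change 0.93, edgeR adjusted p = 0.528). Tmem88 rose from 10.8 ± 2.66 to 19 ± 2.89 CPM (0.82 and 0.77 on the log2 scale) and Chst14, a sulfotransferase gene of dermatan sulfate synthesis, from 3.53 ± 0.941 to 6.68 ± 1.31 CPM (0.91 and 0.84). In both, every castrated library was above every sham library.

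Other higher genes rested on replicates 1 to 4 for most of their size. Itm2a, an X-linked membrane protein gene, was at 4.91 to 7.86 CPM in sham, 13.2 to 20.3 CPM in castrated replicates 1 to 4 and 7.62 to 9.92 CPM in replicates 5 to 7 (log2 fold change 1.03, edgeR adjusted p = 0.0339, and 0.44 without replicates 1 to 4). Eif4ebp1, which encodes the translation repressor 4E-BP1, was at 32 to 48.5 CPM, 69.1 to 94.8 CPM and 45.6 to 48.1 CPM in the same 3 sets (log2 fold change 0.75, edgeR adjusted p = 0.0345, and 0.26). Rps27, a ribosomal protein gene, was at 154 to 193 CPM, 320.0 to 377 CPM and 167 to 192 CPM, so replicates 5 to 7 lay inside the sham range and the log2 fold change went from 0.66 to 0.08. Doc2g and the endoglycan gene Podxl2 went from 0.72 to 0.24 and from 1.96 to 0.78; Podxl2 was at 0.246 to 0.42 CPM in sham libraries, and its fold change rests on few counts. Doc2g shares 52.7% of its end words with Gm49405, Ly6c1 44.3% with other Ly6 genes, and Rpl9, Rpl32 and Rps27 34.5% to 62.1% with copies, so these 5 values are uncertain. Of all 50 called genes, 17 have another gene over their last 400 bases and 11 share over 10% of their end words.

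Without castrated replicates 1 to 4 all 50 genes kept their direction, but 14 had under 0.5 of their size and 2 were called again. The 50 genes were chosen with replicates 5 to 7 in the fit, so their direction there is no independent check. Matn2, named because it was the third gene called without replicates 1 to 4, was at 12.3 to 16.8 CPM (median 16.5) in sham libraries, 15.8 to 20.9 CPM in castrated replicates 1 to 4 and 25.6 to 29.1 CPM in replicates 5 to 7. Its log2 fold change was 0.85 without replicates 1 to 4 (edgeR adjusted p = 0.0233) and 0.53 with all libraries (edgeR adjusted p = 0.0623).

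**Figure D3:**
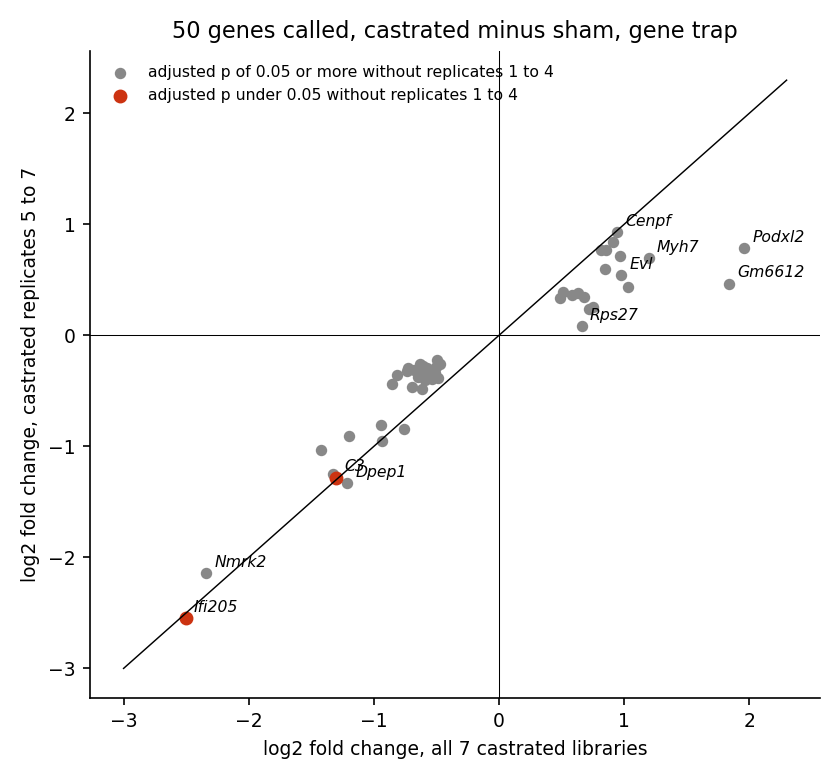
Log2 fold change, castrated minus sham, of the 50 called genes in gene-trap ventricles, with all 7 castrated libraries on the horizontal axis and with castrated replicates 5 to 7 alone on the vertical axis; points are genes and the line is equality. Ifi205 and C3, in red, stayed under the threshold of 0.05, and most other genes lie nearer 0 on the vertical than on the horizontal axis.

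The genes that changed with castration in gene-trap ventricles were set beside the same contrast in wild-type ventricles, which shares no library with it. There 4956 genes were called (40.3%), 2344 higher (19.1%) and 2612 lower (21.3%). Of the 31 genes lower in gene-trap ventricles, 11 (35.5%) were also lower in wild type, among them Ifi205, C3, Dpep1, Tesc, Tnni2, Penk, Helt, Pptc7, Brd7 and Fxr2, which encodes a relative of the fragile X protein. They were 0.421% of the wild-type lower genes. Of the 19 higher genes, 3 (15.8%) were also higher in wild type, namely Cenpf, Tmem88 and Rpl32. In none of these 14 did the difference between the genotypes pass the interaction test. Wild-type Dpep1 went from 73.6 ± 16.1 CPM (n = 6) to 20.1 ± 9.52 CPM (n = 7), a log2 difference of -1.87 (SE 0.213, edgeR adjusted p = 1.02e-05; interaction 0.66, edgeR adjusted p = 0.113). Wild-type Ifi205 went from 4.33 ± 0.909 to 1.49 ± 0.722 CPM, a log2 difference of -1.55 (SE 0.285, edgeR adjusted p = 0.000343; interaction -0.95, edgeR adjusted p = 0.102). Wild-type C3 had a log2 difference of -1.16 (SE 0.188; interaction -0.14, edgeR adjusted p = 0.728).

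The interaction test called 22 of the 50 genes, against 2474 of all genes (20.1%). Of these 22, 4 were called in opposite directions: P2ry14, Tbx2 and the pseudogene Gm6612 were higher in gene-trap and lower in wild-type ventricles, and the zinc finger gene Zfp131 was lower in gene-trap and higher in wild-type ones. Zfp131 went from 28.5 ± 2.41 to 17.8 ± 4.68 CPM in gene-trap ventricles (log2 fold change -0.68) and from 14.9 ± 3.13 to 23.2 ± 3.62 CPM in wild-type ones (log2 fold change 0.63; interaction -1.32, edgeR adjusted p = 0.00269). In gene-trap castrated libraries Zfp131 was at 12.61 to 15.99 CPM in replicates 1 to 4 and 20.76 to 24.08 CPM in replicates 5 to 7. The sham libraries held 24.21 to 31.25 CPM of it in gene trap and 10.55 to 19.15 CPM in wild type. Over the alternatives its log2 fold change in gene trap lay between -0.76 and -0.31. P2ry14 went from 6.65 ± 1.26 to 5.01 ± 1.12 CPM in wild type, against 3.32 ± 0.376 to 6.01 ± 0.91 CPM in gene trap (interaction 1.27, edgeR adjusted p = 0.00588). Fbxo32 had a log2 difference of 0.11 in wild type (interaction -0.71, edgeR adjusted p = 0.00621), Mt2 of -0.09 (interaction -1.23, edgeR adjusted p = 0.0279), Evl of -0.16 (interaction 1.14, edgeR adjusted p = 0.00621) and Ifi211 of 0.36 (interaction -1.78, edgeR adjusted p = 0.0105). Without castrated replicates 1 to 4 edgeR called no interaction among 12693 genes (smallest adjusted p = 0.164; 1721 genes, or 13.6%, at an unadjusted p under 0.05), whereas limma voom called 1229. Across genes, which do not count as replicates, the log2 fold changes of both genotypes had a Pearson r of 0.136 (Spearman rho 0.0837) with all libraries over 12291 genes, and 52.3% shared their sign. Without replicates 1 to 4 these were 0.608 over 12290 genes and 73.2%.

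**Figure D4:**
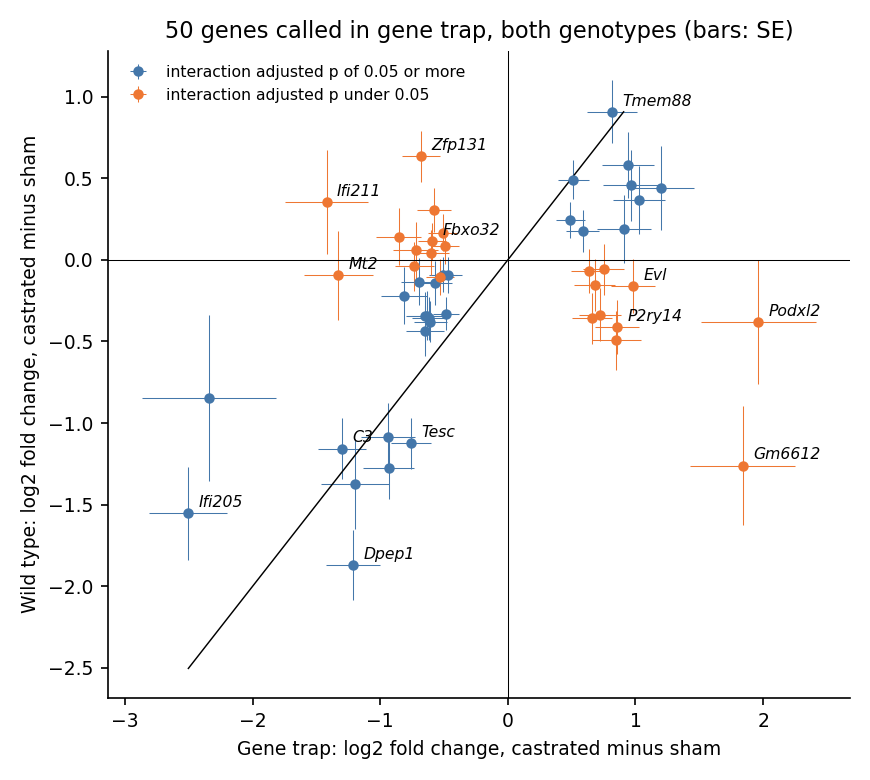
Log2 fold change, castrated minus sham, of the 50 called genes in gene-trap (horizontal) and wild-type (vertical) ventricles; points are genes, bars are standard errors, the line is equality, and orange marks an interaction adjusted p under 0.05. Ifi205, C3, Dpep1 and Tesc lie low in both genotypes, while Zfp131, P2ry14 and Gm6612 lie on opposite sides of 0.

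The cytosolic ribosomal protein genes, which encode the parts of the translating ribosome, had 3 of 78 members higher (Rpl9, Rpl32 and Rps27) and 0 lower. Over all genes 0.155% were called higher and 0.252% lower. Rpl9 was at 87.2 to 115 CPM in sham and 123 to 183 CPM in castrated libraries and Rpl32 at 102 to 158 CPM and 158 to 216 CPM, both without overlap. At an unadjusted p under 0.05, 35 members were higher and 1 lower (7.75% and 9.88% of all genes), 69 of 78 had a positive value, and the list median was 0.23 beside 0.01 over all genes. The mean over the list of each gene's log2 CPM, minus that gene's mean over the 13 libraries, was -0.183 to -0.0546 in sham libraries, 0.157 to 0.29 in castrated replicates 1 to 4 and -0.154 to 0.068 in replicates 5 to 7, and the median without replicates 1 to 4 was 0.08. In wild type 17 members were higher and 22 lower, beside 19.1% and 21.3% of all genes. The nuclear oxidative phosphorylation genes, which encode respiratory chain subunits, had 0 of 81 called, with a median of 0.09 that became -0.09 without replicates 1 to 4, while in wild type 10 were higher and 44 lower, against the same 2 shares.

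The heat shock and unfolded protein response genes, chaperones of the cytosol and endoplasmic reticulum, had 0 of 38 called, with 0 higher and 16 lower at an unadjusted p under 0.05 (7.75% and 9.88% of all genes) and a median of -0.25 (-0.12 without replicates 1 to 4). Without those replicates 3 were lower at an unadjusted p under 0.05. Hspa5, the main chaperone of the endoplasmic reticulum, was at 1690.2 ± 219.7 and 1090.3 ± 255 CPM (log2 fold change -0.63, edgeR adjusted p = 0.052). Hsph1 had -0.66 and Pdia3 -0.56 (edgeR adjusted p = 0.0623 for both). The extracellular matrix and fibroblast genes had 1 of 38 lower (Dpep1) and 0 higher, beside 0.252% and 0.155% of all genes. At an unadjusted p under 0.05, 10 members were higher and 3 lower (7.75% and 9.88% of all genes), with a median of 0.16 (0.21 without replicates 1 to 4). Among them the gelatinase gene Mmp2 had 0.58, the basement membrane collagen gene Col4a1 0.48 and the protease inhibitor gene Timp1 -1.21, each with an edgeR adjusted p of 0.052.

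Interferon-response genes had 1 of 44 lower (Ifi205) and 0 higher, beside 0.252% and 0.155% of all genes. The list median was 0.07 (0.13 without castrated replicates 1 to 4). In wild type 21 were higher and 2 lower (19.1% and 21.3% of all genes) and the median was 0.56. The interaction was called for 15 of these genes, beside 20.1% of all genes, 14 of them with the lower value in gene trap. Other lists had interaction calls too. Of 78 ribosomal protein genes, 29 were called with the higher and 1 with the lower value in gene trap. Of 81 oxidative phosphorylation genes these were 36 and 5, and of all 12291 genes 1447 and 1027. Without castrated replicates 1 to 4 edgeR called no interaction. MHC class I genes, which present antigen, had 0 of 17 called and a median of 0.24 with and without replicates 1 to 4. In wild type 12 were higher and 1 lower (19.1% and 21.3% of all genes), with a median of 0.89. B2m, their shared light chain gene, had a log2 difference of 0.25 in gene trap (edgeR adjusted p = 0.296) and 0.82 in wild type (edgeR adjusted p = 0.000127; interaction edgeR adjusted p = 0.0247).

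Of 40 androgen-responsive genes tested, 0 were called, with 3 higher and 8 lower at an unadjusted p under 0.05, beside 7.75% and 9.88% of all genes, and medians of -0.08 and 0.01 with and without replicates 1 to 4. Fkbp5, a receptor co-chaperone gene that androgens and glucocorticoids induce, was at 11.8 ± 2.94 and 6.52 ± 3 CPM (log2 fold change -0.86, edgeR adjusted p = 0.12). The cyclin-dependent kinase inhibitor gene Cdkn1a had -0.65 (edgeR adjusted p = 0.132). Circadian clock genes had 0 of 19 called, 7 higher and 1 lower at an unadjusted p under 0.05 (7.75% and 9.88% of all genes), and medians of 0.24 and 0.15 with and without replicates 1 to 4. The clock output gene Dbp was over 100 CPM in castrated replicates 1 and 2, and its log2 fold change was 1.02 (edgeR adjusted p = 0.235); the time of tissue collection was not given, and its part in the results was not tested. Per3 had 1.02 (edgeR adjusted p = 0.0574).

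Single members were called in 7 further lists: Mt2 lower of 16 glucocorticoid targets, Eif4ebp1 higher of 32 growth and Akt-mTOR signalling genes, Fbxo32 lower of 19 atrophy ligase and FoxO genes, Myh7 higher of 30 sarcomere and Z-disc genes and of 17 fetal and stress genes, 1 gene lower of 33 calcium cycling and ion channel genes, and Cenpf higher of 35 cell cycle genes. Their medians lay between -0.12 and -0.0028, and 0.155% of all genes were called higher and 0.252% lower. The lists of polyamine, translation factor, mitochondrially encoded, fatty acid oxidation, glucose and glycolysis, immediate early, methylation machinery, proteasome and cholesterol synthesis genes had 0 members called, with medians of -0.23 to 0.10. Members with an edgeR adjusted p of 0.052 included the cholesterol synthesis gene Hmgcs1 (-0.49 on the log2 scale) and the initiation factor gene Eif4h (0.50).

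**Figure D5:**
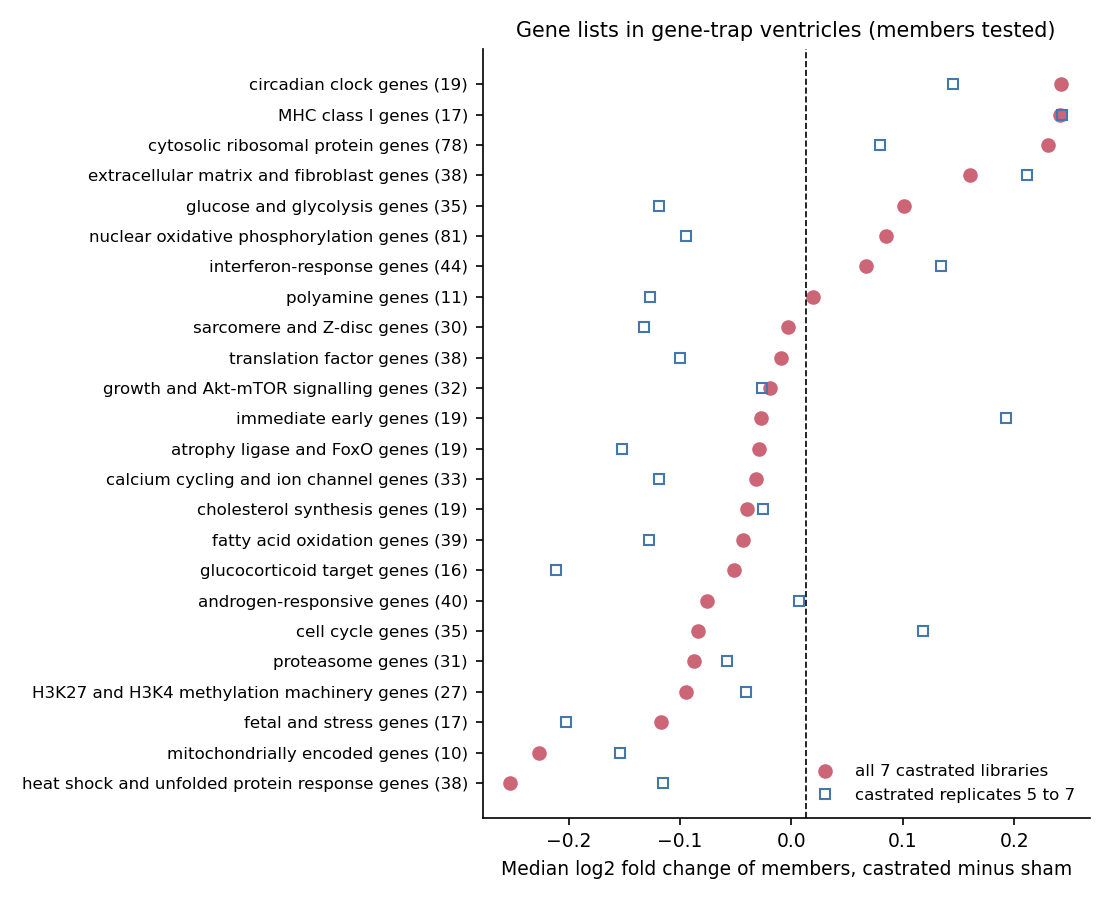
Median log2 fold change, castrated minus sham, of 24 gene lists in gene-trap ventricles, with the number of members tested in brackets; filled circles use all 7 castrated libraries, open squares castrated replicates 5 to 7, and the dashed line is the median of all genes tested with all libraries. Medians lie between -0.25 and 0.24, and those of the ribosomal and oxidative phosphorylation lists are lower with replicates 5 to 7 alone.

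The tissue label was checked with cell type markers. The 12 ventricular cardiomyocyte markers, such as Myl2 and Myh6, summed to 64524 to 80627 CPM in sham and 58275 to 89937 CPM in castrated libraries, and 0 of them were called. Atrial markers summed to 347 to 778 CPM in sham and 342 to 592 CPM in castrated libraries. Endothelial markers summed to 2081 to 3005 CPM in sham and 1898 to 3376 CPM in castrated libraries, with 1 of 14 called, beside 0.407% of all genes. The called marker was Ly6c1, a surface protein gene of endothelium and leukocytes (log2 fold change 0.63, edgeR adjusted p = 0.0345, 0.38 without replicates 1 to 4). Mural markers summed to 1679 to 2399 CPM in sham and 1174 to 2109.8 CPM in castrated libraries, leukocyte markers to 474 to 705 CPM in sham and 420.2 to 710.1 CPM in castrated libraries and erythroid markers to 1159 to 5293 CPM in sham and 2162 to 6633 CPM in castrated libraries, with 0 called in each. Adipocyte markers, 4 of 10 tested, summed to 999 to 1784 CPM in sham and 530.4 to 2158 CPM in castrated libraries. Nearly all of that sum was Fabp4, also an endothelial marker, at 977 to 1775 CPM in sham, 523 to 889 CPM in castrated replicates 1 to 4 and 1814 to 2145 CPM in replicates 5 to 7. The median of these 4 genes was -0.85 on the log2 scale (-0.20 without replicates 1 to 4), and 0 of its 4 members were called. Cfd had -1.33, Plin1 -1.05 and Car3 -0.64, with edgeR adjusted p of 0.256, 0.425 and 0.567. The adipocyte gene Lep and the neural gene Th had 0 counts in all 13 libraries, but other markers of both lists were detected. The adipocyte gene Adipoq was below the filter on low counts. Before the adjustment for composition it was at 0.15 to 1.32 CPM in sham and 0 to 1.31 CPM in castrated libraries. The neural list's Dbh was at 1.86 to 5.86 CPM in sham and 2.61 to 9.58 CPM in castrated libraries. C3 is also made by adipocytes and leukocytes. On that centred log2 scale the adipocyte markers had a mean of -1.45 to -0.375 in castrated replicates 1 to 4, 0.0229 to 0.681 in replicates 5 to 7 and -0.172 to 1.46 in sham libraries. Their part in the result for C3 was not tested. The neutrophil genes S100a8 and S100a9 were highest in sham replicate 7, as was Ifi205. S100a9 lay below every sham library in 5 of 7 castrated libraries and S100a8 in 4. Of the 17 leukocyte markers tested, 5 had a positive log2 fold change. The list median was -0.16 (-0.05 without castrated replicates 1 to 4). At an unadjusted p under 0.05, 1 was higher and 4 lower, beside 7.75% and 9.88% of all genes. Cd74, 1 of the 5 positive markers, was at 6.02 to 23.4 CPM in sham and 14.5 to 41.1 CPM in castrated libraries. For Cd74, 5 castrated libraries lay above every sham library. Lyz2 was at 185 to 244 CPM in sham and 112 to 219.7 CPM in castrated libraries. For Lyz2, 5 castrated libraries lay below every sham library. The part of leukocytes in the results for Ifi205 and C3 was not tested. Over all single libraries left out, sham replicate 7 included, the edgeR adjusted p was up to 0.000227 for Ifi205 and up to 0.00516 for C3.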

How the data were processed

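RNA of 26 left ventricles was made into 3′ end libraries with the Lexogen QuantSeq forward kit, per the labels' protocols. Reads were handled with STAR, featureCounts 1.6.0, CASAVA 1.4, FastQC and DESeq2 1.22.2 on mm10 (GRCm38), per the submitters' processing notes, which leave their roles unstated. Whether counting used strand is not given in the sources here, so values of genes that overlap another gene are uncertain. The authors deposited raw counts per gene and library, per the file headers, with no normalization. The tables held 47642 genes with counts; 4984 genes listed without counts were left out. Entries for reads not assigned to a gene (reads without a unique alignment 41.9% to 46.8%, in no gene 2.66% to 4.62%, ambiguous 0.277% to 0.358%) stayed out of library sizes and tests. Gene counts per library were 6357485 to 9399241, so the floor of 3 counts used for a count of 0 was 0.319 to 0.472 CPM; it covers counting error only.

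Samples were grouped by title. Counts were tested in R 4.3.3 with edgeR 4.0.16 (robust quasi-likelihood F test, TMM scaling, filterByExpr, a mean for each of 4 groups over 26 libraries, Benjamini-Hochberg adjustment over all genes tested, threshold 0.05). Fitting all 26 libraries lets the groups share 1 estimate of the spread. Principal components used log2 CPM with a prior count of 2. Scores and shares per library were compared with two-sided exact permutation tests over 1716 regroupings. For sequence sharing, 31-nt words from the final 400 nt of each gene's transcripts were looked up in all other genes. The script was tested on simulated data.

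Members and lists were chosen with earlier results of these data known. The genes named were Uty, Ddx3y, Kdm5d and Eif2s3y, the 15 higher and 15 lower genes with the smallest p (symbols only), up to 4 members per list, up to 6 per direction called in both genotypes and 10 by the interaction; a few genes that the rule names are not reported here. Other called genes, the p200 family, Matn2 and Dbp were chosen after their values were seen. Alternatives were an adjusted p under 0.01, calls limited to absolute log2 changes of 0.5 or more, edgeR with size factors from DESeq2, DESeq2 1.42.0 itself, limma 3.58.1 voom with sample weights, all genes unfiltered, genes with 10 or more counts in a group's mean, no mitochondrially encoded genes, the 13 gene-trap libraries alone, the replicate number as a block, leaving out castrated replicates 1 to 4, and leaving out each gene-trap library. Leaving out 3 libraries with Dbp over 100 CPM was added after the data were seen. Castrated replicates 1 to 4 were set apart by their component scores in these same data, so the fit without them is no independent check.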

Additional observations from a re-analysis of the deposited data

Results flagged for a closer look

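In gene-trap libraries, these values stood apart from their group by Dixon's gap criterion, which chance meets in about 1 of 20 groups. Many genes were searched in both groups, so chance alone would flag some of these values. In sham replicate 7, Nmrk2 at 95.5 CPM, Ifi205 at 8.72 CPM, the neutrophil genes S100a9 at 17.6 and S100a8 at 13.1 CPM, and Timp1 at 7.74 CPM were the highest of their group, and Lrrc10 at 39.2 CPM and Doc2g at 78.8 CPM the lowest. Sham replicate 4 had the highest Fdft1 at 29.98 CPM, Rgs5 at 1534 CPM and Cfd at 39.1 CPM, and sham replicate 2 stood apart in H2-Q4 at 4.16 CPM, Cdk4 at 18.1 CPM and Wt1 at 13.3 CPM. Sham replicate 3 stood apart in Gm5617 at 21.8 CPM, and sham replicate 1 in Aim2 at 2.24 CPM. Among castrated libraries, replicate 2 stood apart in Eif2s3y at 12.9 CPM, replicate 1 in P2ry14 at 7.93 CPM and replicate 7 in Slc2a4 at 385 CPM.

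In these genes called in gene-trap ventricles, the castration effect differed between the genotypes by the edgeR interaction test (adjusted p under 0.05). On the log2 scale, gene trap minus wild type, the difference was 3.10 for Gm6612, 2.34 for Podxl2, 1.34 for Tbx2, 1.27 for P2ry14, 1.14 for Evl, 1.06 for Doc2g, 1.02 for Rps27, 0.83 for Gm5617, 0.81 for Eif4ebp1 and 0.70 for Ly6c1. It was -1.78 for Ifi211, -1.32 for Zfp131, -1.23 for Mt2, -1.0 for Amot, -0.89 for Mga, -0.78 for Cdc25a, -0.71 for Fbxo32, -0.69 for Timm9, -0.68 for Ktn1, -0.65 for Ppp2r2a and -0.43 for Rab3gap1. Without castrated replicates 1 to 4 edgeR called 0 of these.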

How the results depend on the processing

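The count of 50 genes called in gene-trap ventricles was 2 at an adjusted p under 0.01, 434 with DESeq2, 6 with limma voom, 81 without a low-count filter, 5 with the 13 gene-trap libraries alone, 3 without castrated replicates 1 to 4, 4 without the 3 libraries with high Dbp, and 3 to 377 with each library left out. Other settings gave 45 to 67 genes; without mitochondrially encoded genes 26 were higher and 26 lower. Of the functional lists, 11 members were called; these were 1 at an adjusted p under 0.01, 54 with DESeq2, 3 with limma voom, 2 with the 13 libraries alone, 1 without castrated replicates 1 to 4, 2 without the libraries with high Dbp and 1 to 50 with each library left out. The interaction count of 2474 was 518 at an adjusted p under 0.01, 0 without castrated replicates 1 to 4, 742 without the libraries with high Dbp and 1644 (without castrated replicate 4) to 3244 with each library left out. The wild-type count of 4956 was 2854 at an adjusted p under 0.01. The cause of these moves was not tested. Under the settings run, 0 of the 50 genes reversed their sign.

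With the replicate number as a replicate block, 67 genes were called in the fit to 4 groups (20 higher, 47 lower); in the 13 gene-trap libraries with a replicate block 301 genes and 38 list members were called. Same-numbered castrated and sham libraries had correlations of -0.360 to 0.323, over 0.1 in 2 of 6 pairs, and of these replicate 4 alone correlated best with its own number. The labels do not say what the number stands for, so whether same-numbered libraries share more than it is not known. At these depths Ifi205 in castrated libraries, and Uty, Podxl2, Ifi211 and Gm6612, rest on few counts per library.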
